A study of Rattus norvegicus with 294 samples.

Results

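The genes described here encode proteins of the cytosolic ribosome, with some paralogs of them, in rat bone cells. They were taken by symbol: every gene whose name starts with Rpl or Rps and a digit, or is Rpsa, Rplp0, Rplp1 or Rplp2, with kinases of the Rps6k family and pseudogenes left out. A gene was kept where the array has a probe set that names it alone, and where it has several, the one with the highest mean stands for it. This gave 48 of the 14217 genes of the array, without Rplp1 and Rplp2. By symbol alone, 33 were counted with the large and 15 with the small subunit, paralogs included. Another 36 probe sets name a ribosomal protein gene together with other genes and are given only as a group.

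The ribosome joins a small subunit, which reads the messenger RNA, to a large subunit, which forms the peptide bond, and its proteins are made in step because each subunit needs one copy of almost every one. Their mRNAs start with a run of pyrimidines (C or T), the 5′ TOP motif, through which mTOR signalling controls their translation; this control acts on the use of the mRNA and need not change its level. Cells that secrete much protein, such as osteoblasts laying down collagen, or that divide, need many ribosomes, and too little of a single ribosomal protein causes Diamond-Blackfan anaemia in people. Several of the genes, Rplp0 and Rpl13a among them, are widely used as reference genes for quantitative PCR.

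The arrays came from female Sprague-Dawley rats that had all been ovariectomized, the controls too, and left untreated for 8 weeks before dosing. Weekly subcutaneous injections of vehicle or of an antibody to sclerostin (Scl-Ab), the osteocyte protein that blocks Wnt signalling and so bone formation, at 3 or 50 mg/kg followed. The 3 cell types were cut by laser from sections of a lumbar vertebra: osteoblasts on forming bone (97 arrays), lining cells on resting bone (100 arrays) and osteocytes inside the bone (97 arrays). Tissue was taken on days 8, 29, 85 and 183 of dosing, and then without treatment on days 197 and 267 for the 3 mg/kg dose and days 237 and 309 for the 50 mg/kg dose, with vehicle on all of them. That makes 60 groups, of 5 arrays each except 4 in 4 groups and 3 in 1 group (osteocytes, 50 mg/kg, day 85). All rats, untreated ones included, were given calcein to mark new bone. A captured area can hold neighbouring cells, and a lower signal can mean fewer cells of a type or less RNA per cell, which cannot be told apart here.

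Several facts about the arrays bear on every value below. The titles fall into 3 runs of numbers, for days 8 to 85, day 183 and the later days, so differences between these periods cannot be told apart from the run. The labels do not name the rat behind an array, and replicate numbers here only name arrays, so the p-values measure the spread between arrays. On days 8 to 85, arrays of different cell types that hold the same place in the title numbers deviated from their group means together in the mean of the ribosomal protein genes (Pearson r = 0.836 between osteoblasts and lining cells over 43 pairs), so results of the cell types on the same day are not separate evidence. Day 183 and the later days were not tested for this. In vehicle arrays after quantile normalization, osteocyte markers were higher in osteocytes than in osteoblasts for 7 of 8 genes and than in lining cells for 8 of 8; as deposited these were 5 (with 2 higher in osteoblasts) and 6. Osteoblast markers did not follow the labels: in vehicle arrays 5 of 9 were higher in osteoblasts than in lining cells and 1 lower, but all 9 were lower in osteoblasts than in osteocytes (8 higher, 0 lower and 6 lower as deposited). Erythroid markers were higher in osteoblasts than in osteocytes for 10 of 12 genes (12 as deposited).

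The run of pyrimidines named above lies at the start of the mRNA, so the sequence around the annotated start is given here. RefSeq's promoter sequences (rat assembly GRCr8) held 43 of the 48 genes; Rpl7, Rpl30, Rps29, Rpl27 and Rpl23a had none. The 7 below were called in osteoblasts on day 8 (Rplp0, Rpl14, Rps15, Rpl19) or in osteocytes on days 183 and 237 (Rpl35a, Rpl13a, Rpl21), and were picked after their values were seen, as examples that hold the run. Each runs 5′ to 3′ from 40 bases before to 30 after the annotated start, and capitals mark a C followed by at least 4 pyrimidines within 10 bases of that start.
Rplp0, chr12:46718361-46718430, strand -: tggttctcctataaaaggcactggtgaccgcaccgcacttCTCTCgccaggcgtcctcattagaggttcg
Rpl14, chr8:129163580-129163649, strand +: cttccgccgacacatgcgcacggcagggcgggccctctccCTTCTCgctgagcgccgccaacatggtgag
Rps15, chr7:10068086-10068155, strand -: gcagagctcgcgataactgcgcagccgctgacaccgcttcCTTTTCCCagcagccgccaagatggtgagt
Rpl19, chr10:83519024-83519093, strand +: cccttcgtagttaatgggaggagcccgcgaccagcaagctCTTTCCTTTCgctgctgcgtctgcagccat
Rpl35a, chr11:81234992-81235061, strand -: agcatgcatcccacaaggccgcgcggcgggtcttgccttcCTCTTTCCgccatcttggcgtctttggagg
Rpl13a, chr1:104748884-104748953, strand -: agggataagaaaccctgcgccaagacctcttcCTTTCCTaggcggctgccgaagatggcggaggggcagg
Rpl21, chr12:13386124-13386193, strand -: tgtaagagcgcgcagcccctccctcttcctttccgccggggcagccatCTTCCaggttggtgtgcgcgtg

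In the first 5 of these the capitals begin at the annotated start, and the bases just before it are pyrimidines as well; in Rpl13a and Rpl21 the capitals begin 8 bases before or after it. The next 2 genes were called in osteoblasts as well and are shown because they have no such run within 10 bases of the start.
Rpl24, chr11:58128376-58128445, strand -: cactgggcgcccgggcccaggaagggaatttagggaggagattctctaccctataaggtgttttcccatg
Rps27l, chr8:76443618-76443687, strand +: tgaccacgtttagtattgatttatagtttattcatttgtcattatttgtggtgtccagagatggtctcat

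A C followed by at least 4 pyrimidines stood at the annotated start of 12 of 43 genes (27.9%) against 2.63% of all 27457 promoters, and within 10 bases of it in 29 (67.4%) against 28.8%. In the whole window, from 250 bases before to 50 after the start and on both strands, TCTCGCGA stood in 8 genes (18.6%; 0.943% of all promoters), AAGATGG, a match to the YY1 factor's motif, in 8 (18.6%; 7.3% of all), and CTTCCGG, a match to the ETS family's motif, in 10 (23.3%; 9.22% of all). The TATA box TATAAA stood in 6 (14.0%; 14.3% of all) and the E-box CACGTG, which Myc can bind, in 3 (6.98%; 6.65% of all). With the genes split by that run, on day 8 in osteoblasts 11 of 27 genes with it and 9 of 13 without it were higher with antibody, with median log2 differences of 0.338 and 0.43, and in osteocytes on day 237 these were 11 of 28 and 3 of 13, with medians of 0.288 and 0.197. These differences were not tested.

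Signals are log2 of the deposited values, and each gene's own levels are compared between groups; levels of different genes are not, because probe sets differ in brightness. A difference is the antibody mean minus the vehicle mean on the log2 scale, and a gene is called when its limma p, adjusted by Benjamini-Hochberg over all genes of the fit, is under 0.05. Of the 48 genes, 45 passed the filter on dim genes in osteoblasts and lining cells and 46 in osteocytes. Rpl28 and Rpl39l1, a copy of Rpl39, passed in no cell type, rising above the array's median in 0 and 0 of 97 osteoblast arrays and in 1 and 2 of 97 osteocyte arrays; Rps4y2, whose gene the RefSeq table places on chromosome 4, passed only in osteocytes, with 11 of 97 arrays.

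The members moved together from array to array. After each group's mean was taken off, a gene's correlation with the mean of the others had a median of 0.731 in osteoblasts, 0.803 in lining cells and 0.654 in osteocytes, a description over the arrays, which share their depth of signal. It was over 0.5 in 37 of 45, 39 of 45 and 33 of 46 genes. Rps13, a small-subunit protein, and Rpl30, a large-subunit one, stood apart at −0.119 and −0.221 in osteoblasts, −0.354 and −0.154 in lining cells and −0.322 and −0.265 in osteocytes. The paralog Rpl26l1 gave 0.017, 0.158 and −0.002. The probe sets of Rps13, Rpl30 and Rpl26l1 are dim, with mean log2 signals of 4.93, 3.33 and 4.34. That of Rps27l, at 5.06, gave 0.717 in osteoblasts. The part of dim signal in these correlations was not tested.

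The mean of the 45 genes per array placed the groups in a narrow range. Group means ran from 9.74 to 10.48 in osteoblasts, from 9.39 to 10.10 in lining cells and from 9.35 to 10.08 in osteocytes, with a median SD within groups of 0.118, 0.144 and 0.114. In vehicle osteoblasts it was 9.98, 10.15, 9.90 and 9.74 on days 8, 29, 85 and 183, and 10.48, 10.39, 10.43 and 10.32 on days 197, 237, 267 and 309. The later days lay higher than the dosing days in vehicle arrays of all 3 cell types, across the change of title run.

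**Figure D1:**
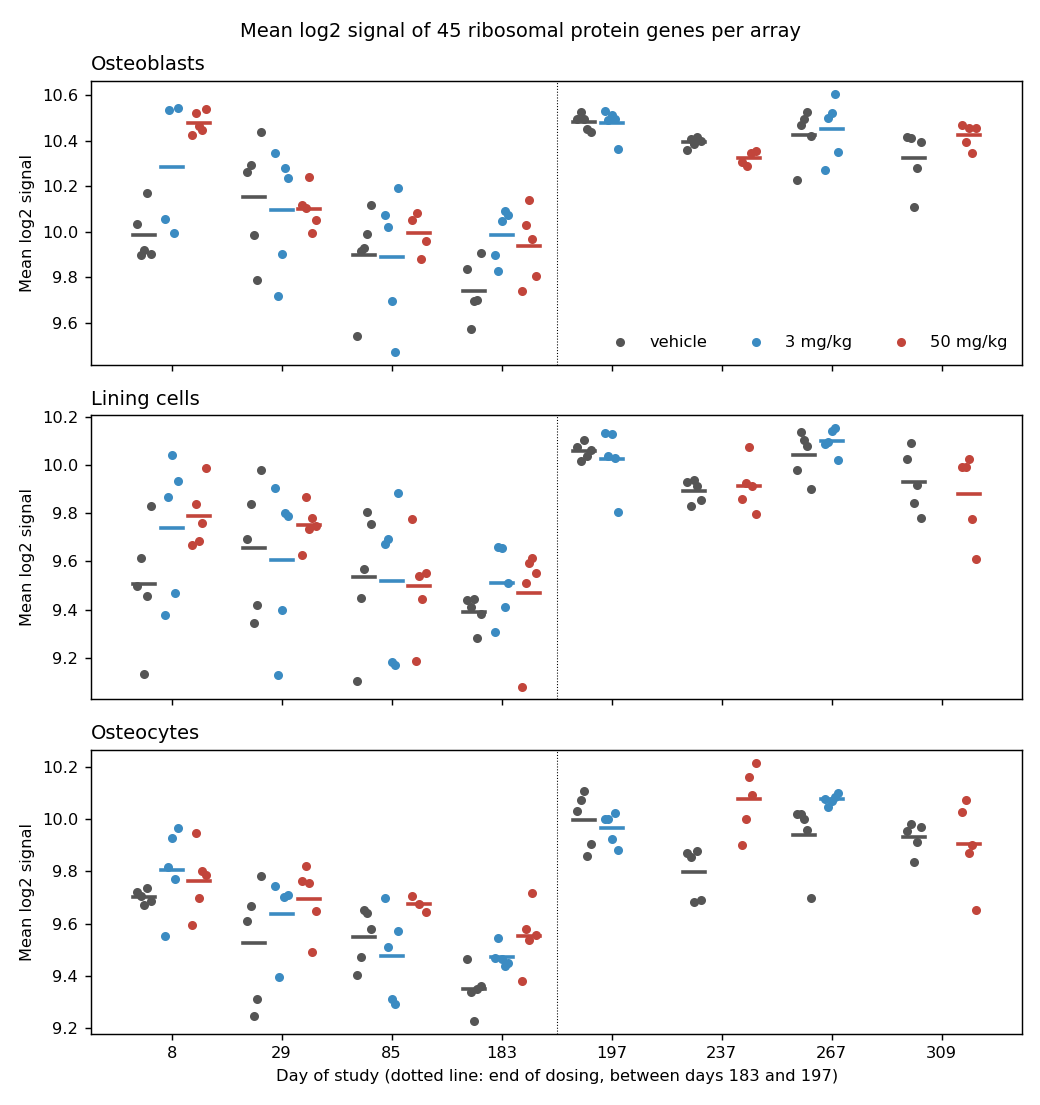
Mean log2 signal of the 45 ribosomal protein genes in each array (points) with group means (bars), by day of study (horizontal axis) in the 3 cell types. The 5 osteoblast arrays at 50 mg/kg on day 8 lie between 10.42 and 10.54, all above the 5 vehicle arrays at 9.90 to 10.17.

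Single genes varied more than the mean. The same 5 had the most variable group means in all 3 cell types: Rpl24, which helps join the subunits, Rpl14, Rplp0, Rps16 and Rpl27. Their group means spanned 2.14, 2.36, 1.57, 1.57 and 1.43 log2 units in osteoblasts, where the median over members was 0.931 and the median SD within groups 0.236. Rps28, Rps23, which lines the decoding centre, and Rpl37a were among the 5 least variable in every cell type, with bright probe sets (mean log2 signals of 12.70, 13.34 and 11.82), whose part in the small spread was not tested; their ranges were 0.340, 0.373 and 0.446 in osteoblasts and 0.193, 0.313 and 0.369 in lining cells. Rplp0 and Rpl27, both on the list of reference genes, were thus among the most variable members over these groups. The groups span the 3 title runs, so these ranges cannot be told apart from differences between the runs.

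Antibody went with higher ribosomal protein mRNA in osteoblasts on day 8, the first time point. With both doses combined, 22 of 45 genes rose and 0 fell, against 2.52% of all genes called higher; the median difference was 0.398 where that of all genes was 0.025, and 41 of 45 were positive. Large-subunit genes gave 17 of 31 and small-subunit genes 5 of 14, with medians of 0.398 and 0.374. The mean over members was 10.034, 9.895, 9.920, 10.169 and 9.903 in the vehicle arrays, 10.055, 10.534, 9.995 and 10.544 at 3 mg/kg, and 10.424, 10.523, 10.464, 10.445 and 10.538 at 50 mg/kg. The 3 mg/kg arrays thus split, with 1 pair beside vehicle and the other beside the high dose.

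Rpl14, a large-subunit protein, changed most, by 1.13 (SE 0.223, adjusted p = 0.00105). Its log2 signal was 5.53, 5.62, 5.47, 6.47 and 5.08 in vehicle, 6.18, 6.86, 6.25 and 7.74 at 3 mg/kg, and 6.40, 7.16, 6.92, 6.85 and 6.54 at 50 mg/kg. All 9 treated arrays lay above the vehicle mean, and the highest vehicle array overlapped the lowest treated ones. Its dimmer second probe set differed by 0.35.

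Rplp0, the protein that anchors the stalk where translation factors land, rose by 0.86 (SE 0.163, adjusted p = 0.000794). It read 11.00, 10.82, 11.09, 11.91 and 10.74 in vehicle, 11.67, 11.96, 11.47 and 12.09 at 3 mg/kg, and 12.15, 12.54, 12.25, 11.79 and 12 at 50 mg/kg. As with Rpl14, the fourth vehicle array was the one inside the treated range.

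Rps27l, a copy of Rps27 that p53 can induce, rose by 0.78 (SE 0.167, adjusted p = 0.00282). Vehicle arrays read 4.85, 5.05, 4.97, 4.99 and 4.46, those at 3 mg/kg 4.92, 5.85, 4.98 and 5.80, and those at 50 mg/kg 5.76, 6.06, 5.75, 5.90 and 6.07. All 5 arrays of the high dose were above all vehicle arrays, while the low dose fell into the same 2 pairs as the mean did. Rpl18, a large-subunit protein, rose by 0.75 (SE 0.174, adjusted p = 0.00572), from 10.79, 11.04, 11.00, 11.84 and 10.36 in vehicle to 11.87, 11.83, 11.34 and 12.23 at 3 mg/kg and 11.40, 12.28, 11.65, 11.81 and 11.32 at 50 mg/kg.

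**Figure D2:**
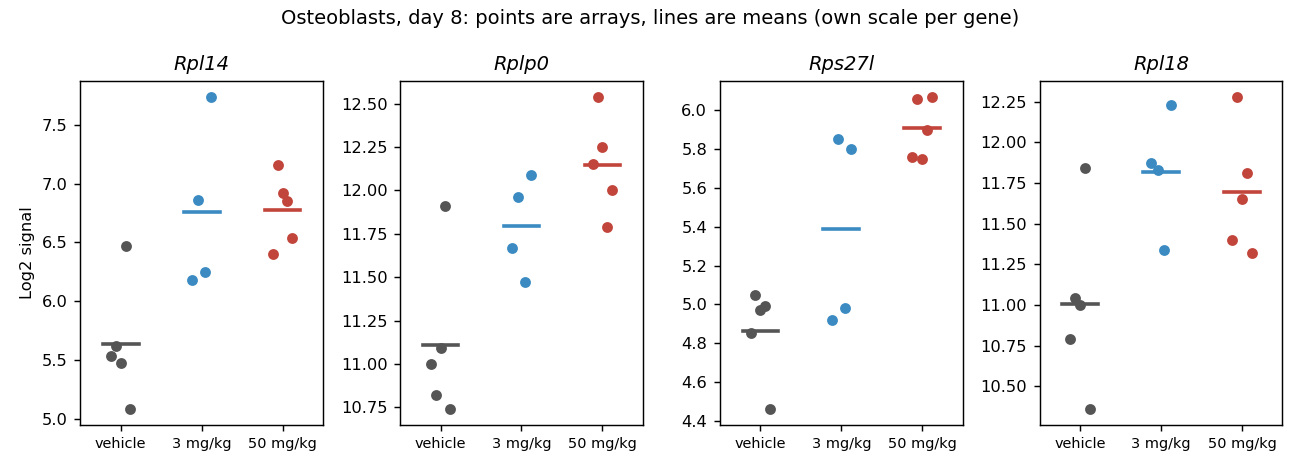
Log2 signal of 4 genes in osteoblasts on day 8; points are single arrays of vehicle, 3 mg/kg and 50 mg/kg, lines are group means, and each gene has its own scale. All 9 treated arrays lie above the vehicle mean for each gene, and 1 vehicle array is high for Rpl14, Rplp0 and Rpl18.

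The other called genes ranged from 0.31 for Rps3a to 0.73 for Rpl27. They included Rpl12, which sits at the base of the stalk (0.68), Rps3 at the entry of the mRNA channel (0.71), Rps15 near the decoding site (0.72), Rpl19 (0.37), the laminin receptor Rpsa (0.43), and Rpl11 (0.42), which with Rpl5 and the 5S RNA can bind Mdm2. Rpl5 itself differed by 0.45 with an adjusted p of 0.0518. Of 11 measured genes linked to Diamond-Blackfan anaemia 4 rose, as did 3 of 5 reference genes. Rps13, Rpl26l1, Rpl3l and Rpl39 had negative differences, of −0.51, −0.19, −0.15 and −0.02, and none passed the test. The 36 shared probe sets had a median of 0.511, with 35 positive.

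By dose, 50 mg/kg gave 31 genes higher and 0 lower (5.21% of all genes higher), with a median of 0.494, and in 33 of 45 members all 5 treated arrays lay above all 5 vehicle arrays, against 4.65% of all genes. At 3 mg/kg 0 members were called and 0% of all genes, with a median of 0.279, 41 of 45 positive and 24 at an unadjusted limma p under 0.05. The count of 22 fell to 10 without the third vehicle array or the fourth 3 mg/kg array, and to 11 without the fifth vehicle array or the second 3 mg/kg array. It was 9 after quantile normalization and 3 with only the day 8 arrays in the fit, namely Rpl14, Rplp0 and Rps27l.

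Some genes of the lists around the ribosome rose on that day too. Of 14 translation factors and other TOP genes 5 rose, among them the elongation factors Eef2 (0.60), Eef1b2 (0.54) and Eef1g (0.48). Of 36 ribosome biogenesis genes 4 rose: Fbl (0.82), which methylates ribosomal RNA, Ncl (0.63), Nhp2 (0.58) and Nop10 (0.49). Mitochondrial ribosomal protein genes gave 10 of 73 and proteasome subunits 8 of 46, with medians of 0.373 and 0.374, close to that of the cytosolic genes. Of 13 regulators of ribosomal protein synthesis 0 were called, with a median of −0.041.

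Markers of other cells moved as well. Erythroid markers rose in 6 of 12 genes, and their summed signal was 11580 to 13967 in vehicle, 12096 to 20097 at 3 mg/kg and 16082 to 27181 at 50 mg/kg. Proliferation genes rose in 4 of 15, from sums of 3616 to 4741 in vehicle to 5269 to 7671 at 50 mg/kg. Osteoblast markers had 0 genes higher and 1 lower of 9, with sums of 17912 to 20822, 13457 to 37054 and 22757 to 34559 in the 3 groups, and osteoclast markers 0 of 4, with sums of 11012 to 14367 in vehicle and 4200 to 9035 at 50 mg/kg. The lowest deposited value of any probe set was 2.94, so a sum above 0 does not show that its markers were expressed. The part of these cells in the rise of ribosomal protein genes was not tested.

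Lining cells and osteocytes on day 8 had the same sign with smaller values. In lining cells 0 of 45 members were called (0.31% of all genes), with a median of 0.281, 41 positive and 22 at an unadjusted limma p under 0.05; Rpl14 was at 0.61, Rplp0 at 0.57 and Rpl12 at 0.56. In osteocytes 0 of 46 were called (0.287%), with a median of 0.096. The test of the difference in response called 0 members and 0% of all genes between osteoblasts and lining cells (median 0.114), 0 and 0% between osteoblasts and osteocytes (median 0.293, 16 members at an unadjusted limma p under 0.05), and 0 and 0% between lining cells and osteocytes (median 0.157). So the data do not show that the day 8 response differs between the cell types.

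The rise was not seen on days 29 and 85 in osteoblasts. On day 29, 0 members were higher and 2 lower, fewer in proportion than the 12.4% of all genes called lower: Rps13 fell by 0.54 (SE 0.165, adjusted p = 0.0196) and Rpl5 by 0.41 (SE 0.139, adjusted p = 0.036). Rps13 read 5.90, 5.78, 6.58, 6.17 and 5.86 in vehicle, 5.57, 5.34, 5.29, 5.98 and 5.77 at 3 mg/kg and 5.61, 5.55, 5.46, 5.17 and 5.46 at 50 mg/kg, so the high dose lay wholly below vehicle. Rpl5 read 11.52, 11.64, 11.09, 10.87 and 11.67 in vehicle, 11.46, 10.09, 10.84, 11.33 and 11.22 at 3 mg/kg and 10.91, 10.84, 11.24, 10.83 and 10.76 at 50 mg/kg, and the groups overlapped. At 50 mg/kg 4 fell (20.6% of all genes), with Rpl3l (−0.58) and Rps23 (−0.26) joining them. With the array's signal range as a covariate, 2 members were called at that dose, both higher. The 2 calls over both doses became 1 without any of vehicle arrays 1, 2, 3 and 5, low-dose arrays 2 and 3 or high-dose array 5, became 4 (1 higher, 3 lower) without vehicle array 4, and were 0 with the array's signal range as a covariate; the 4 at 50 mg/kg became 2 without vehicle array 1, 2, 3 or 5 or high-dose array 2, 4 or 5.

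On day 85 in osteoblasts 0 members were called over both doses (1.76% of all genes). At 50 mg/kg Rps15a rose by 0.63 (3.38% of all genes higher) and Rpl3l fell by 0.89 (1.09% lower). The count of 2 was 0 without the third 50 mg/kg array and 1 without vehicle array 1, 2 or 4 or high-dose array 1, 2 or 4.

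On day 183, the last day of dosing, 4 of 45 members were higher in osteoblasts and 0 lower (2.27% of all genes higher), with a median of 0.204 and 42 positive. Rpl24 rose by 0.89 (SE 0.18, adjusted p = 0.0013): it read 6.68, 5.93, 6.31, 6.64 and 7.32 in vehicle, 6.82, 7.40, 7.75, 7.63 and 7.52 at 3 mg/kg and 7.17, 7.74, 7.83, 7.44 and 7.32 at 50 mg/kg. All 10 treated arrays were above the vehicle mean. Rpl26, which lies by the exit tunnel, rose by 0.59 (adjusted p = 0.0139), Rpl5 by 0.53 (adjusted p = 0.018) and Rps16 by 0.49 (adjusted p = 0.0349).

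Rpl5 on that day read 9.92, 9.91, 9.90, 10.17 and 10.18 in vehicle, 10.62, 10.37, 10.50, 10.94 and 10.40 at 3 mg/kg and 10.04, 10.70, 11.10, 10.62 and 10.13 at 50 mg/kg. The low dose lay wholly above vehicle and the high dose overlapped it. The 4 calls became 2 without the first vehicle array or the third 50 mg/kg array, and 1 (Rpl24) without vehicle array 2 or 3. Markers of other cells moved in these arrays as well: 3 of 9 granulocyte markers rose (sums 19175 to 26117 in vehicle, 25065 to 29355 at 3 mg/kg and 28620 to 35823 at 50 mg/kg), as did 2 of 4 osteoclast markers, 1 of 12 erythroid markers, 1 of 5 megakaryocyte markers and 4 of 15 proliferation genes (sums 2924 to 3404, 3086 to 4244 and 3585 to 5478), and their part in the result was not tested. Rpl24 was the only member called in the same direction in 3 of the 12 comparisons of antibody with vehicle during dosing: osteoblasts on days 8 and 183 and osteocytes on day 183. Whether arrays of different cell types deviated together on day 183 was not tested, so its calls on that day may not be separate evidence.

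Lining cells had 0 members called on days 29, 85 and 183 as on day 8, where 0.0431%, 0.0776% and 0.0517% of all genes were, and their medians were 0.031, −0.006 and 0.10.

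Osteocytes, the cells that make sclerostin, had 0 members called on day 29 over both doses (0.211% of all genes), with a median of 0.134. At 50 mg/kg 3 rose on that day (3.24%), namely Rpl26 (0.49), Rpl19 (0.39) and Rpl27a (0.36), and Rpl3l fell by 0.78 (3.26% lower). That count of 4 was unsteady: it was 12 without vehicle array 5, 9 and 8 without high-dose arrays 4 and 5, 2 without vehicle array 3 or 4 or high-dose array 2, and 1 without high-dose array 3.

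On day 85 in osteocytes 0 members rose and 2 fell (1.87% of all genes lower). Rps13 fell by 0.80 (SE 0.193, adjusted p = 0.00483): vehicle arrays read 5.60, 5.36, 5.27, 4.45 and 5.58, those at 3 mg/kg 4.17, 4.01, 4.74, 5.32 and 5.03 and those at 50 mg/kg 4.37, 3.90 and 4.48. Rpl3l, the form of Rpl3 known from heart and skeletal muscle, fell by 0.57 (SE 0.177, adjusted p = 0.0378): it read 3.69, 3.00, 4.64, 3.48 and 3.70 in vehicle, 3.53, 3.44, 3.47, 3.81 and 3.02 at 3 mg/kg and 2.95, 2.91 and 2.59 at 50 mg/kg, where all 3 arrays lay below vehicle. Without vehicle array 1, 3 or 5, low-dose array 5 or high-dose array 3, 1 of the 2 remained called.

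The 50 mg/kg group of that day, with 3 arrays, had 6 members higher (6.64% of all genes) and 2 lower (3.5%). Rpl26 rose by 0.66, Rps15a by 0.59, Rpl24 by 0.59, Rpl5 by 0.55, Rpl27 by 0.53 and Rpl21 by 0.36, while Rps13 fell by 1.001 and Rpl3l by 0.89. The 8 calls became 4 without vehicle array 1 or 2, 3 without high-dose array 1 and 2 without high-dose array 2, and were 0 with array weights. The antibody's effect on Rps13 differed between osteoblasts and osteocytes on day 85, by 1.32 (SE 0.249, adjusted p = 0.00024; 0.695% of all genes called in that direction).

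Day 183 gave the second group of called members, in osteocytes. Over both doses 9 of 46 genes rose and 0 fell (1.75% of all genes higher), 9 of 31 in the large subunit and 0 of 15 in the small one, with a median of 0.137 where that of all genes was 0.016. The difference between the subunits was not tested. The called genes were Rpl13a (0.59), which also serves to silence inflammatory mRNAs, Rpl26 (0.58), Rpl7 (0.57), Rpl24 (0.55), Rpl35a (0.50), Rpl21 (0.47), Rpl11 (0.43), Rpl23a (0.40) by the exit tunnel, and Rpl22 (0.31).

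Rpl13a read 10.74, 10.56, 10.28, 10.96 and 10.94 in vehicle, 11.12, 11.24, 10.87, 10.94 and 11.16 at 3 mg/kg and 11.37, 11.55, 11.38, 11.59 and 11.63 at 50 mg/kg, a difference of 0.59 over both doses (SE 0.101, adjusted p = 7.3e-05). All 10 treated arrays were above the vehicle mean, and every high-dose array lay above every other one. Rpl21 read 11.23, 10.89, 10.60, 11.10 and 11.01 in vehicle, 11.21, 11.26, 11.24, 11.29 and 11.13 at 3 mg/kg and 11.52, 11.50, 11.50, 11.91 and 11.75 at 50 mg/kg (SE of the difference 0.089, adjusted p = 0.000389). Its high dose, too, was clear of both other groups.

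Rpl7, with an SE of 0.141 and an adjusted p of 0.0122, read 10.05, 9.76, 9.46, 10.01 and 10.06 in vehicle, 10.14, 10.36, 10.25, 10.37 and 10.06 at 3 mg/kg and 10.26, 10.63, 10.68, 10.92 and 10.70 at 50 mg/kg. Its second probe set differed by 0.53. Rplp0 went the other way at the high dose without passing the test: it read 10.58, 10.83, 10.31, 10.38 and 10.70 in vehicle, 10.70, 10.71, 10.95, 10.40 and 10.36 at 3 mg/kg and 9.88, 10.40, 10.16, 10.08 and 10.07 at 50 mg/kg, a difference of −0.44 at that dose (adjusted p = 0.113).

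By dose, 50 mg/kg gave 13 members higher (4.93% of all genes), 12 of 31 in the large subunit and 1 of 15 in the small one (Rps6), and 1 lower (1.45%), Rpl3l at −0.64. Rpl13a led with 0.81, ahead of Rpl7 (0.77), Rpl24 (0.77) and Rpl35a (0.74), and in 13 of 46 members all high-dose arrays lay above all vehicle arrays, against 6.82% of all genes. At 3 mg/kg 0 members were called and 0% of all genes, with a median of 0.115. Over both doses the 9 calls became 4 without the second vehicle array and 2 without the third, and were 5 after quantile normalization.

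The osteocyte markers moved in the same arrays. Of 8 of them 4 rose (median 0.882), and the summed signal of the list was 1453 to 2797 in vehicle, 3571 to 7304 at 3 mg/kg and 9686 to 14351 at 50 mg/kg. Of the other lists, 0 of 12 erythroid markers were called (median 0.014), 0 of 15 proliferation genes (−0.278), 0 of 5 B-lineage markers (−0.27), 0 of 7 adipocyte markers (−0.27), 0 of 10 skeletal muscle markers (0.245), 1 of 7 endothelial markers (0.04), 0 of 35 ribosome biogenesis genes (0.001), 0 of 73 mitochondrial ribosomal protein genes (0.006), 1 of 46 proteasome subunits (Psmc1, 0.50) and 1 of 14 translation factors (Eif3k, 0.50). Summed signals of some lists still lay apart: skeletal muscle markers gave 288 to 359 in vehicle and 379 to 665 at 50 mg/kg, endothelial markers 68 to 79 and 92 to 149, and proliferation genes 1449 to 1676 and 755 to 1445. Osteoclast markers were called in 0 of 5, with sums of 7589 to 9412 in vehicle and 3646 to 8404 at 50 mg/kg. The part of these shifts in the ribosomal protein genes was not tested.

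The response on day 183 minus that on day 8 was tested in each cell type. It called 0 members in osteoblasts (0.561% of all genes), 0 in lining cells (0.0172%) and 1 in osteocytes (0.413% of all genes higher): Rpl13a, by 0.57 (SE 0.143, adjusted p = 0.0357). That call was lost after quantile normalization, with the signal range as covariate, and without any one of 10 arrays: vehicle 1, 2 and 3, low-dose 1 and high-dose 3 of day 8, and vehicle 2 and 3, low-dose 2 and high-dose 4 and 5 of day 183. Osteoblasts and osteocytes did not differ in the response on day 183 in a way the test could call (0 members; 0.488% of all genes; median 0.018).

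**Figure D3:**
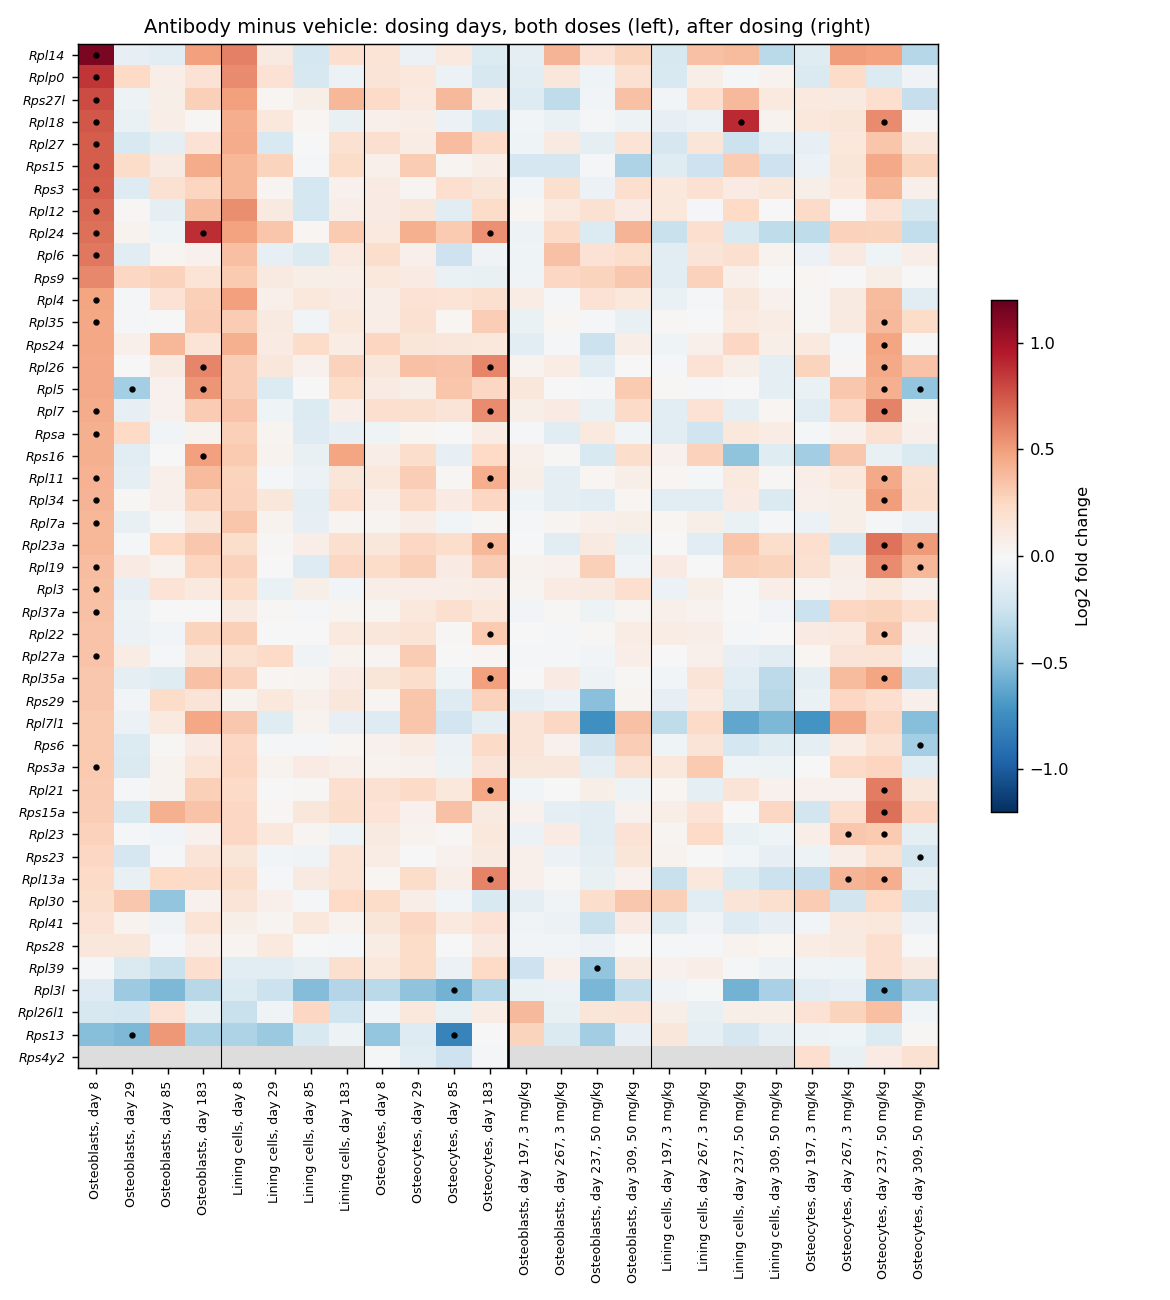
Log2 difference of antibody minus vehicle for the 46 tested genes (rows) in the 12 comparisons over both doses during dosing (left of the thick line) and the 12 after it (right); dots mark calls at an adjusted p under 0.05 and grey marks genes not tested. The columns with most dots are osteoblasts on day 8 (22), osteocytes on day 237 after 50 mg/kg (17) and osteocytes on day 183 (9).

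Osteocytes taken after the last 50 mg/kg dose also had higher ribosomal protein mRNA. On day 237, with the 50 mg/kg dose stopped, 16 of 46 members were higher than in vehicle of that day (7.04% of all genes) and 1 lower (6.16%), with a median of 0.265 where that of all genes was −0.013, and 40 positive. The large subunit gave 14 of 31 and the small subunit 2 of 15. Of the 13 members higher at 50 mg/kg on day 183, 11 were among these 16 (84.6% of the first list and 68.8% of the second), in other arrays with other vehicle arrays. Of the same 13, 10 (76.9%) were also among the 31 higher in osteoblasts at 50 mg/kg on day 8. There 31 of 45 tested members were called, so a large overlap was likely whatever the list. The members move together from array to array, so shared genes are not separate evidence, and the overlap over all genes was not counted.

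Rps15a, a small-subunit protein, differed by 0.66 (SE 0.157, adjusted p = 0.0017): it read 7.29, 7.04, 6.99, 7.17 and 7.01 in vehicle and 7.32, 7.42, 7.93, 7.89 and 8.26 after antibody, with no overlap. Rpl23a differed by 0.65 (SE 0.121, adjusted p = 3.5e-05), from 10.30, 10.05, 9.98, 10.22 and 10.08 to 10.49, 10.52, 10.99, 10.99 and 10.92. Rpl21 differed by 0.61 (SE 0.103, adjusted p = 5e-06), from 11.61, 11.54, 11.38, 11.47 and 11.41 to 11.82, 12.02, 12.27, 11.97 and 12.40. In both genes every treated array was above every vehicle array.

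Rpl7 differed by 0.60 (SE 0.162, adjusted p = 0.00658), from 10.57, 10.73, 10.36, 10.39 and 10.23 to 10.80, 10.93, 11.17, 11.05 and 11.33, again without overlap. Rpl13a, the leader of day 183, differed by 0.44, from 11.69, 12.09, 11.49, 11.61 and 11.53 to 11.86, 12.08, 12.21, 12.14 and 12.31, with its second vehicle array inside the treated range. Rpl3l fell by 0.57 (SE 0.194, adjusted p = 0.0384) and Rplp0 was at −0.17, not called. All treated arrays were above all vehicle arrays in 11 of 46 members, against 3.52% of all genes, and the 36 shared probe sets had a median of 0.285, with 33 positive. The 17 calls became 10 without the fifth vehicle array and 5 with only the arrays of that comparison in the fit.

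**Figure D4:**
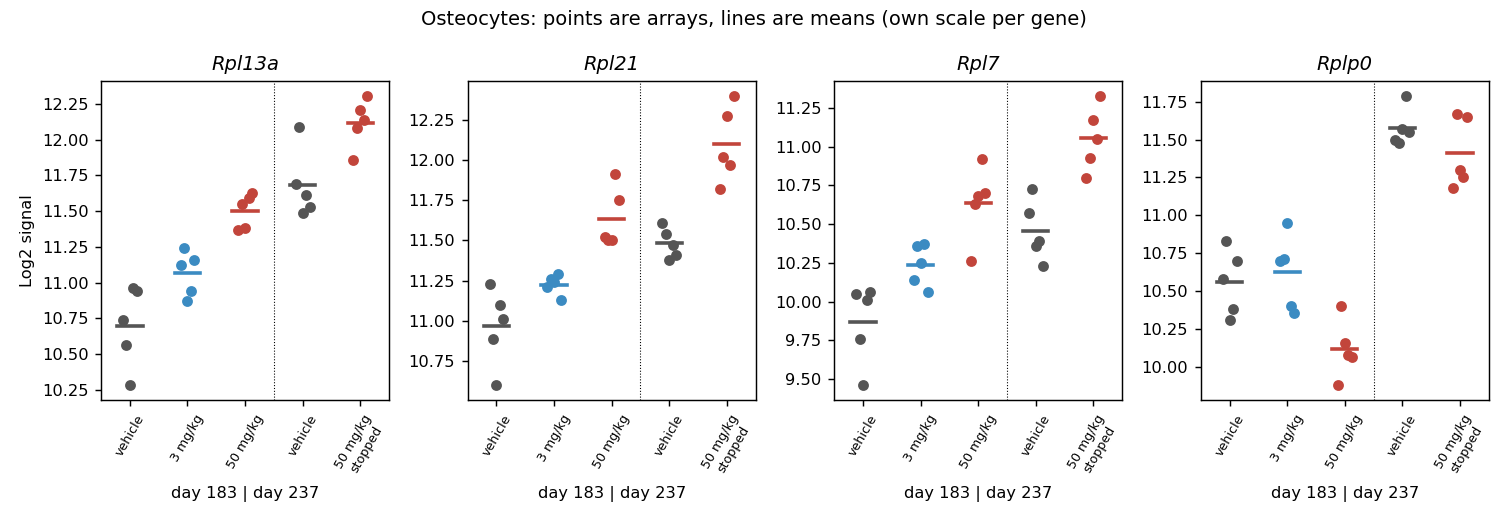
Log2 signal in osteocytes of 4 genes on day 183 (vehicle, 3 and 50 mg/kg) and, right of the dotted line, on day 237 (vehicle, and 50 mg/kg stopped); points are arrays, lines are means, each gene has its own scale, and the 2 days come from different title runs. Rpl13a, Rpl21 and Rpl7 lie higher with 50 mg/kg on both days, and Rplp0 does not.

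Markers of several cell types differed between the groups in the osteocyte captures of day 237 as well. Osteocyte markers were higher in 5 of 8 genes, with sums of 1046 to 6148 in vehicle and 12256 to 16431 after antibody, and endothelial markers in 4 of 7, with sums of 72 to 141 and 111 to 219. Erythroid markers were lower in 7 of 12 (sums 10997 to 21859 and 8150 to 11697), osteoblast markers in 5 of 9 (11017 to 13927 and 4069 to 7091) and proliferation genes in 13 of 15. The part of these shifts in the ribosomal protein genes was not tested.

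Few genes of the lists around the ribosome were called on that day. Ribosome biogenesis genes gave 1 higher and 2 lower of 35 (Rrn3 0.62, Nop56 −0.37, Bop1 −0.61), mitochondrial ribosomal protein genes 1 of 73 (Mrpl52, 1.28), translation factors 1 of 14 (Naca, 0.68), and proteasome subunits 0 higher and 1 lower of 46 (Psmf1, −1.01). Among 13 regulators Mdm2 was higher (0.55), and Larp1 (−0.34), which binds TOP mRNAs, and Eif4ebp2 (−1.25), a target of mTOR that holds back translation, were lower. On day 8 in osteoblasts some genes of these lists had risen, as given above; the difference between the days was not tested for them.

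By day 309, 2 members were higher in osteocytes that had had 50 mg/kg (5.36% of all genes), Rpl23a (0.51) and Rpl19 (0.40), and 3 were lower (11%), Rpl5 (−0.47), Rps6 (−0.41), the target of the S6 kinases, and Rps23 (−0.22). Both counts were smaller in proportion than those of all genes, and the median over members was 0. The 5 calls became 3 without the fifth treated array. After 3 mg/kg, 0 were called on day 197 (1.11% of all genes) and 2 were higher on day 267 (3.46%): Rpl13a by 0.41, from 11.68, 11.66, 11.58, 11.54 and 11.44 in vehicle to 12.16, 11.79, 11.98, 11.98 and 12.03, and Rpl23 by 0.33. The 2 calls became 1 without vehicle array 3 or 4 or treated array 1, 3 or 5, and 0 without vehicle array 5 or treated array 4.

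The cells on the bone surface showed few calls after dosing. Osteoblasts had 0 on day 197 (0.0789% of all genes), 0 on day 267 (0%) and 0 on day 309 (10.5%), and on day 237 Rpl39 was lower by 0.47 (7.7% of all genes lower), a call lost without any one of vehicle arrays 2, 3 and 4 and treated arrays 1, 2 and 4. The mean over members in osteoblasts on day 237 was 10.289 to 10.355 in the treated arrays and 10.359 to 10.415 in vehicle, without overlap. The median difference was −0.061 for members and −0.038 for all genes. Lining cells had 0 on day 197 (0.0603%), 0 on day 267 (1.08%) and 0 on day 309 (0.405%). On day 237 Rpl18 was higher in lining cells by 0.90 (SE 0.203, adjusted p = 0.0108; 0.526% of all genes higher), from 10.54, 10.31, 10.70, 10.59 and 10.50 in vehicle to 11.26, 11.29, 12.17, 11.51 and 10.88. These groups do not overlap, and the call was lost without the third treated array.

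The 2 doses were compared over the 4 dosing days. In osteocytes 13 members were higher at 50 than at 3 mg/kg (6.84% of all genes) and 2 lower (8.12%), with a median of 0.075. Rpl7 led with 0.39 (SE 0.086, adjusted p = 0.000387), then Rpl26 (0.30), Rpl21 (0.28), Rpl24 (0.27) and Rpl13a (0.26), all 5 called on day 183, whose arrays this comparison includes; Rpl3l was lower by 0.49 (SE 0.102, adjusted p = 0.000229) and Rps13 by 0.43 (SE 0.112, adjusted p = 0.00376). Osteocyte markers were higher in 6 genes, proliferation genes lower in 12 and ribosome biogenesis genes lower in 8 of 35, Bysl (−0.54) and Fbl (−0.56) among them. In osteoblasts 1 member differed, Rpl3l, lower by 0.40 (SE 0.102, adjusted p = 0.014; 1.13% of all genes lower), a call lost without the third 50 mg/kg array of day 85; the count was 3 without the fifth 3 mg/kg array of day 85, and 2 without any one of arrays 2 and 4 of 3 mg/kg on day 8, array 4 of 50 mg/kg on day 8, arrays 1 and 5 of 3 mg/kg on day 29, array 2 of 3 mg/kg on day 85 and array 1 of 50 mg/kg on day 183. In lining cells 0 differed (0.647%).

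Of the paralogs, Rps27l was among the genes that rose most in osteoblasts on day 8, while Rpl3l had differences of the opposite sign. Rpl3l was below vehicle in all 12 comparisons of both doses during dosing, by 0.15 to 0.57, and in all 12 after it. On days 8 to 85 results of the cell types on the same day are not separate evidence, and for day 183 and the later days this was not tested. How many of all genes kept 1 sign throughout was not counted. At 50 mg/kg its differences on days 8, 29, 85 and 183 were −0.21, −0.58, −0.89 and −0.58 in osteoblasts, −0.21, −0.26, −0.59 and −0.66 in lining cells and −0.39, −0.78, −0.89 and −0.64 in osteocytes. Its signal is low, with group means in osteocytes of 4.13 in vehicle on day 8 and 2.82 at 50 mg/kg on day 85. In the latter group the median of all probe sets of an array was 3.07 on average. The median difference of the skeletal muscle markers in osteocytes was −0.09, 0.114, −0.011 and 0.245 on the 4 dosing days, and their part in the values of Rpl3l was not tested. Rpl7l1 was called in none of these comparisons, with differences after dosing from −0.74 in osteoblasts on day 237 (adjusted p = 0.0754) to 0.46 in osteocytes on day 267.

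Some members differed between days of the first title run in vehicle arrays. The signal range of the arrays, the 90th minus the 50th percentile of log2 signal, differed with them: from day 8 to day 85 it went from 3.20 to 3.66 down to 2.95 to 3.08 in osteoblasts (lowest to highest array), and from a mean of 3.20 to 2.68 in osteocytes. With it as covariate the calls of day 85 given next went from 8 to 4 in osteoblasts and from 10 to 1 in osteocytes. In osteoblasts 2 were higher on day 29 than on day 8 (0.911% of all genes), Rpl27 (0.65) and Rpl5 (0.61); on day 85 3 were higher (14.7%), Rpl30 (0.79), Rpl14 (0.60) and Rpsa (0.32), and 5 lower (25.9%), Rps13 (−0.999), Rps29 (−0.78), Rpl13a (−0.63), Rps15a (−0.48) and Rps3a (−0.31). Both shares on day 85 were below those of all genes. The 2 calls of day 29 became 0 without vehicle array 2 or 3 of day 8 or 1, 2 or 5 of day 29, 5 without array 3 and 9 without array 4 of day 29.

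Lining cells had 0 members called on day 29 and 0% of all genes, and 0 on day 85 (3.84%). In osteocytes 2 were lower on day 29 (1.69%), Rps29 (−0.69) and Rpl27a (−0.37), and on day 85 1 was higher (9.54%), Rpl30 (0.69), and 9 lower (26.3%), led by Rplp0 (−0.78), Rps3 (−0.73), Rps15 (−0.72) and Rpl7l1 (−0.69). The 2 calls of day 29 became 0 without array 1 or 3 of day 8 or array 3 of day 29, 1 without array 2 or 4 of day 8 or array 1 or 4 of day 29, and 4 without array 5 of day 29; the 10 of day 85 became 6 without its second array. Rpl30 and Rps13, the members least tied to the others, were thus among those called between days, in opposite directions in osteoblasts. Both have dim probe sets, as given above.

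Which cell type had more ribosomal protein mRNA depended on the scaling. In vehicle arrays as deposited, 44 of 46 members were higher in osteoblasts than in lining cells (94.7% of all genes) and 44 higher than in osteocytes (93.9%), and between lining cells and osteocytes 9 were higher (71.6%) and 7 lower (9.08%); but the median of all genes itself was shifted by 0.422, 0.671 and 0.268. After quantile normalization, which removes that shift, 9 were higher (16.4% of all genes) and 6 lower (17.5%) in osteoblasts than in lining cells, with a median of 0.009. Against osteocytes, osteoblasts then had 4 higher (32%) and 30 lower (31.9%), with a median of −0.174, and lining cells 3 higher (31.5%) and 33 lower (27.2%), with a median of −0.164. Relative to the other genes, then, most members were lower in both surface cell types than in osteocytes, while as deposited they were higher in osteoblasts.

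Some genes kept their direction under both scalings, Rpl39 and Rpl13a among them. In osteoblasts against osteocytes, 10 of 46 members were positive after quantile normalization, where as deposited all 46 were. Rpl39, a small protein of the exit tunnel, was higher in osteoblasts than in lining cells by 1.18 (1.69 as deposited) and than in osteocytes by 0.57 (1.383 as deposited), and lower in lining cells than in osteocytes by 0.61 (0.31 as deposited). Rpl13a was higher in lining cells than in osteocytes by 0.61 (0.78 as deposited) and in osteoblasts than in osteocytes by 0.29 (0.78 as deposited), but its difference between osteoblasts and lining cells was −0.32 after quantile normalization and −0.002 as deposited. Among the others, after quantile normalization, Rps15 (−0.51), Rps16 (−0.43) and Rpl12 (−0.41) were the lowest in osteoblasts against osteocytes, and Rps9 (−0.45) in lining cells against osteocytes; as deposited Rps15, Rps16 and Rpl12 were at 0.21, 0.02 and 0.08 in osteoblasts against osteocytes.

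**Figure D5:**
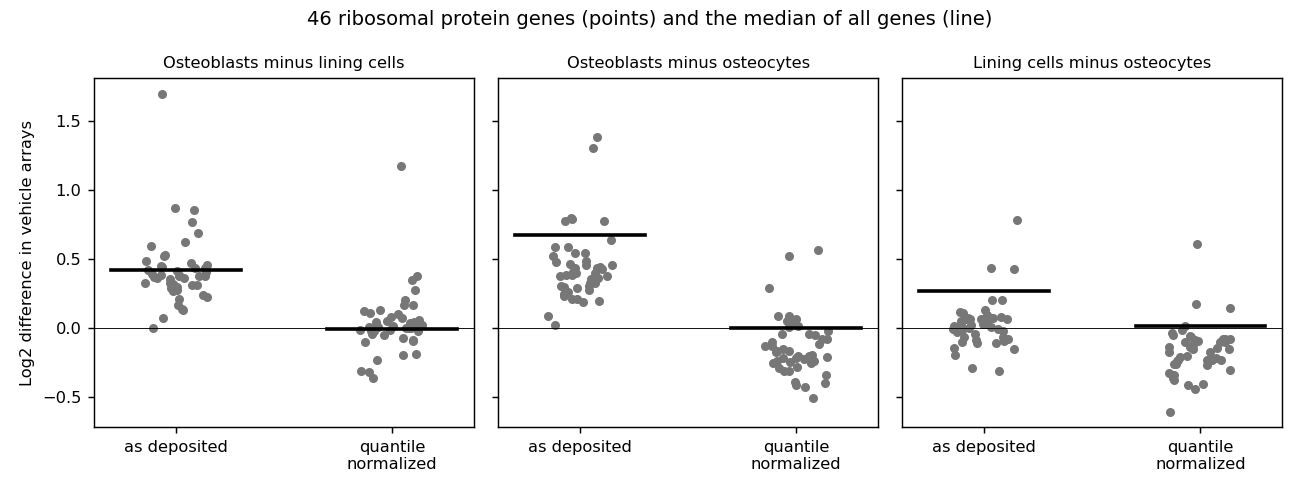
Log2 difference between cell types in vehicle arrays for the 46 genes (points), with values as deposited and after quantile normalization; the line is the median of all genes. As deposited most points lie above 0 for osteoblasts, but so does the median of all genes (0.422 and 0.671), and after quantile normalization most lie below 0 against osteocytes.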

How the data were processed

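RNA of laser-captured cells (1.5 ng, amplified) was measured on Affymetrix rat arrays. The authors deposited linear RMA intensity values per probe set, per the labels; the submitters' processing notes name Affymetrix Expression Console, RMA, R 3.0.1 and affy 1.38.1 without roles. RMA gives no depth, so the number of arrays limits the precision. Of 31042 probe sets 20826 name 1 gene, 436 several and 9780 none. From the deposited intensity, log2 was taken and fitted with limma 3.58.1 (R 4.3.3; lmFit, eBayes), all arrays of a cell type in 1 fit with a mean per group. Genes above their array's median in at least 5 arrays were kept, p-values were adjusted by Benjamini-Hochberg over all of them, and the threshold was 0.05. Cell types were compared in vehicle arrays after quantile normalization, with day as covariate, and the response between cell types in 1 fit of all 294 arrays. The fits were tested on simulated data. Members and lists were chosen with earlier results of these data known. Beyond some called genes named after their values were seen, genes are named where at most 6 members were called, otherwise the 4 largest of each direction; also Rplp0, paralogs, reference genes, the 5 most and 5 least variable, and repeated calls. Alternatives were no filter, quantile normalization, mean of probe sets, array weights, compared groups only, the signal range (90th minus 50th percentile) as covariate and leaving out each array. Sequences are RefSeq's, GRCr8.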

Additional observations from a re-analysis of the deposited data

Results flagged for a closer look

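The mean log2 signal of the ribosomal protein genes had 1 array far from the others of its group in 5 of 59 groups tested with Dixon's criterion, which chance alone gives in about 1 of 20. In osteocytes at 3 mg/kg on day 29 the second array lay lowest at 9.40 (others 9.70 to 9.74), at 3 mg/kg on day 183 the second lay highest at 9.55 (9.44 to 9.47), and in vehicle on day 267 the fifth lay lowest at 9.70 (9.96 to 10.02). In lining cells at 50 mg/kg on day 183 the first array lay lowest at 9.08 (9.51 to 9.61), and in osteoblasts of the 3 mg/kg rats on day 197 the fifth lay lowest at 10.36 (10.49 to 10.53).

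A difference between groups was called by limma for 2 genes. The antibody's effect on Rps13 on day 85 was higher in osteoblasts than in osteocytes by 1.32 (SE 0.25, adjusted p = 0.00024). Its probe set is dim, with a mean log2 signal of 4.93. Its correlation with the other members was −0.119 in osteoblasts and −0.322 in osteocytes, and the osteocyte group at 50 mg/kg had 3 arrays. The antibody's effect on Rpl13a in osteocytes was higher on day 183 than on day 8 by 0.57 (SE 0.14, adjusted p = 0.0357).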

How the results depend on the processing

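Counts of called ribosomal protein genes depended on the settings, and in some comparisons below so did the direction of the calls. None of the 32 named gene results of antibody against vehicle changed sign. Differences between cell types did with the scaling: in osteoblasts against osteocytes Rps15, Rps16 and Rpl12 were at −0.51, −0.43 and −0.41 after quantile normalization and at 0.21, 0.02 and 0.08 as deposited. Main counts come first below and both doses are meant unless 1 is given.

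With array weights osteoblasts had 2 and 4 on day 29 (50 mg/kg 4 and 9), 2 and 1 on day 85 at 50 mg/kg, 4 and 14 on day 183 (50 mg/kg 2 and 11), 1 and 4 on day 237, 0 and 1 for day 183 minus day 8, and 2 and 12 for vehicle day 29 minus day 8. Lining cells had 0 and 6 on day 8 (50 mg/kg 0 and 7), 0 and 1 on day 183 (50 mg/kg 0 and 5), 0 and 1 on day 267, 1 and 3 on day 237, and 0 and 1 for vehicle day 29. Osteocytes had 0 and 1 on day 8, at 50 mg/kg on day 8 and on day 29, 2 and 0 on day 85 (50 mg/kg 8 and 0), 0 and 4 on day 197, 2 and 4 on day 267, and 10 and 6 for vehicle day 85.

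With only the compared groups in the fit, osteoblasts had 22 and 3 on day 8, 2 and 1 on day 29 (50 mg/kg 4 and 1), 2 and 0 on day 85 at 50 mg/kg, 4 and 1 on day 183 (50 mg/kg 2 and 1), 1 and 3 on day 237, and 2 and 0 for vehicle day 29; lining cells 0 and 2 on day 183 at 50 mg/kg; osteocytes 4 and 1 on day 29 at 50 mg/kg, 2 and 0 on day 85 (50 mg/kg 8 and 0), 0 and 1 on day 197, 2 and 1 on day 267, 17 and 5 on day 237, 5 and 1 on day 309, and 2 and 0 for vehicle day 29. The mean of probe sets gave osteoblasts 1 and 3 on day 237, 0 and 1 on day 309 and 0 and 1 for day 183 minus day 8, and osteocytes 4 and 8 on day 29 at 50 mg/kg. Without the filter, osteoblasts had 2 and 1 for vehicle day 29.

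After quantile normalization osteoblasts had 22 and 9 on day 8 (50 mg/kg 31 and 13), 2 and 1 on day 29, 0 and 1 on day 85 (50 mg/kg 2 and 1), 4 and 2 on day 183, 0 and 2 for day 183 minus day 8, and 8 and 16 for vehicle day 85; lining cells 0 and 2 on day 8 at 50 mg/kg and for vehicle day 85; osteocytes 2 and 5 on day 85, 9 and 5 on day 183, 0 and 2 on day 197, 2 and 1 (a gene called lower) on day 267, 5 and 8 on day 309, 1 and 0 for day 183 minus day 8, and 2 and 1 for vehicle day 29. The response of lining cells minus osteocytes on day 85 had 0 and 1. With the signal range as covariate osteoblasts had 2 and 0 on day 29 (50 mg/kg 4 and 2, both in the other direction), 2 and 1 on day 85 at 50 mg/kg, 4 and 1 on day 183, 1 and 0 on day 237, 1 and 3 between doses, 0 and 1 for day 183 minus day 8, and 8 and 4 for vehicle day 85; lining cells 0 and 3 on day 8 (50 mg/kg 0 and 6) and 0 and 1 on day 183 at 50 mg/kg; osteocytes 0 and 1 on day 29 (50 mg/kg 4 and 12), 2 and 1 on day 267, 1 and 0 for day 183 minus day 8, and 2 and 0 and 10 and 1 for vehicle days 29 and 85. Values as deposited gave 15 and 44 for osteoblasts against lining cells and 36 and 16 for lining cells against osteocytes. The causes of these changes were not tested. The fit with only the compared groups holds fewer arrays and also takes its spread from those groups alone.

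Leaving out 1 array gave ranges in osteoblasts of 10 to 31 on day 8, 1 to 4 on day 29 (50 mg/kg 2 to 6), 0 to 1 on day 85 (50 mg/kg 0 to 2), 1 to 6 on day 183 (50 mg/kg 1 to 5), 0 to 1 on day 237, 0 to 3 between doses, 0 to 1 for day 183 minus day 8 and 0 to 9 for vehicle day 29. In lining cells they were 0 to 2 on day 8 (50 mg/kg 0 to 2), 0 to 1 on day 237 and 0 to 1 for vehicle day 85. In osteocytes they were 0 to 1 on day 29 (50 mg/kg 1 to 12), 1 to 2 on day 85 (50 mg/kg 2 to 8), 2 to 10 on day 183, 0 to 2 on day 267, 10 to 18 on day 237, 3 to 5 on day 309, 0 to 1 for day 183 minus day 8, 0 to 4 for vehicle day 29 and 6 to 11 for vehicle day 85, and for the response of lining cells minus osteocytes on day 85 0 to 1.

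Of 32 named gene results, 0 lost their call without the filter, 2 with the mean of probe sets, 3 with array weights, 8 with the signal range, 10 after quantile normalization, 14 with the compared groups only and 17 without some single array. The labels give no replicate numbers and do not name the rat. Pairing arrays of the cell types by place in the title numbers, a replicate block chosen after seeing the data, called 0 members for each response difference on days 8 to 85 except 1 (Rps13) between osteoblasts and osteocytes on day 85, as without it. On day 8, 22 of 46 members had an unadjusted limma p under 0.05 between osteoblasts and osteocytes with pairing (median SE 0.151), and 16 without it (0.203). These counts were 2 and 1 between osteoblasts and lining cells, and 3 and 4 between lining cells and osteocytes.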

Other observations

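On days 8, 29 and 85 each cell type's titles cover 45 consecutive numbers, and each run of 5 holds 1 treatment and day, the same in all 3 cell types. Arrays at the same place, whose rats the labels do not name, differed from their group means together in the mean of the ribosomal protein genes. Over 43 places, Pearson's r was 0.836 and Spearman's rho 0.799 between osteoblasts and lining cells, over 41 places 0.815 and 0.814 between osteoblasts and osteocytes, and over 42 places 0.761 and 0.725 between lining cells and osteocytes. Permutation within groups (100000 draws, two-sided) gave p = 1e-05 for each r, the smallest it can give, and 2e-05 after Benjamini-Hochberg adjustment over the 6 relations computed; for rho the adjusted values were 3e-05, 3e-05 and 4e-05. Without the 2 arrays farthest from the median, r was 0.804, 0.785 and 0.726. The signal range of the same arrays gave r of 0.265, 0.371 and 0.390, with adjusted p of 0.19, 0.064 and 0.059 by the same permutation.

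The arrays show it directly. In vehicle rats on day 29 the arrays at places 3 and 4 were the low ones in every cell type: 9.99 and 9.79 in osteoblasts, 9.35 and 9.42 in lining cells and 9.25 and 9.31 in osteocytes, where the other 3 lay at 10.26 to 10.44, 9.69 to 9.98 and 9.61 to 9.78. At 3 mg/kg on day 85 places 3 and 4 were again low, at 9.70 and 9.47, 9.18 and 9.17, and 9.31 and 9.29. At 3 mg/kg on day 8 places 1 and 4 were low, at 10.06 and 9.99 in osteoblasts, 9.38 and 9.47 in lining cells and 9.55 and 9.77 in osteocytes.

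Gene by gene, the median of that r over the 45 ribosomal protein genes was 0.678, 0.563 and 0.565 for the 3 pairs of cell types, beside 0.168, 0.119 and 0.143 over all 11030 genes, and 43, 41 and 38 of the 45 lay above the median of all genes. Rpl22 had the highest value between osteoblasts and lining cells (0.859), Rpl12 between osteoblasts and osteocytes (0.815) and Rpl4 between lining cells and osteocytes (0.837). Genes of 1 array are not independent, and these medians are a description. What the arrays at a place share was not tested.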
